A study of Homo sapiens with 6 samples.

Results

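The neutrophil-attracting CXC chemokines are small secreted proteins that carry a glutamate-leucine-arginine (ELR) motif and recruit neutrophils through the receptors CXCR1 and CXCR2. Their expression was followed in BT-549 cells, an established line of triple-negative breast cancer (TNBC), after silencing of the long noncoding RNA NEAT1. The group was fixed by gene symbol as CXCL1, CXCL2, CXCL3, CXCL5, CXCL6 and CXCL8, which is 6 of the 25545 genes with an expression value. The members were chosen by their TPM in these same libraries, with the difference between NEAT1siRNA and CsiRNA already known, so their own differences are given as a description, with no test.

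Cells were transfected with a control siRNA (CsiRNA) or with an siRNA against NEAT1 (NEAT1siRNA), and RNA was taken 48 h later from cultures grown in triplicate, which gave 3 libraries per group. The sample titles write the groups as BT-549/tet-NEAT1CsiRNA and BT-549/tet-NEAT1siRNA, and the labels name no inducing agent. Both groups shared the cell line, a serum-containing medium with insulin, and stranded mRNA libraries. Expression was given in TPM, that is, reads per transcript length scaled to 1000000 in each library. The model was 1 cell line at 1 time after transfection. NEAT1 was silenced with a single commercial siRNA, whose sequence is not given in the sources used here. Secreted protein was not part of these data, and in bulk RNA fewer expressing cells and less RNA per cell cannot be told apart.

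All 6 genes lie on the long arm of chromosome 4, within 358.678 kb in GRCh38. They encode the GRO proteins (CXCL1, CXCL2 and CXCL3), ENA-78 (CXCL5), GCP-2 (CXCL6) and interleukin-8 (CXCL8). The GRO proteins and ENA-78 act mainly through CXCR2, whereas GCP-2 and interleukin-8 bind both receptors. Cytokines such as interleukin-1 and TNF induce these genes through NF-κB and AP-1, and their mRNAs are short-lived because of AU-rich elements in the 3′ untranslated region. NEAT1 is the scaffold of nuclear paraspeckles, which hold proteins such as SFPQ, a factor that can bind promoters of chemokine genes.

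Each of the 6 promoters held the same 9 letters close to the transcription start, in the form that NF-κB dimers recognise. The stretches of 30 bases around them are shown to make the relationship of the genes visible. They are printed 5′ to 3′ on the strand of the gene, from RefSeq on GRCh38.p14, with GGAATTTCC in capitals.
CXCL1, chr4:73869305-73869334, plus strand: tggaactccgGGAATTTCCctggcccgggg
CXCL2, chr4:74099253-74099282, minus strand: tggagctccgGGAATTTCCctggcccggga
CXCL3, chr4:74038748-74038777, minus strand: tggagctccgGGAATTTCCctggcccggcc
CXCL5, chr4:73998748-73998777, minus strand: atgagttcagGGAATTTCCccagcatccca
CXCL6, chr4:73836579-73836608, plus strand: ctgagttcagGGAATTTCCccagcatccca
CXCL8, chr4:73740468-73740497, plus strand: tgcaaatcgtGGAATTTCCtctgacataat

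The flanking letters fell into a GRO set, a CXCL5 and CXCL6 set, and CXCL8 by itself. The first capital stood at -78, -77 and -78 from the RefSeq start in CXCL1, CXCL2 and CXCL3, and at -90, -89 and -91 in CXCL5, CXCL6 and CXCL8. These letters were chosen after the 6 promoters had been looked at. Searched on both strands, as were all motifs named here, they occurred in 129 of 27305 gene promoters of 300 bases (0.472%), and in 39 of the 8316 promoters of genes tested below (0.469%). A TATA-type run, ATAAAA, was found at -30 or -31 in 5 of the 6 promoters, all but that of CXCL6, and in 16.4% of all promoters and 7.20% of those of genes tested. A GC box, GGGCGG, was present in 3 of the 6 promoters, those of CXCL1, CXCL3 and CXCL6. It was found in 44.6% of all promoters and in 72.2% of those of genes tested. An AP-1 element, TGANTCA, was found, among the 6, only in CXCL8, at -137 (7.76% of all promoters, 4.02% of those of genes tested), and a C/EBP element, TTGCNNAA, only in CXCL2 (10.6% and 6.76%). None of these matches overlapped the capitals, and a match of letters describes the sequence and is not evidence of binding.

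Silencing was first checked on NEAT1 itself. The NEAT1 level was 13.4, 7.68 and 10.8 TPM in CsiRNA replicates 1 to 3 and 4.36, 2.96 and 2.73 TPM in NEAT1siRNA replicates 1 to 3. The mean fell from 10.6 ± 2.86 to 3.35 ± 0.885 TPM (SD, n = 3), which is 68.5% lower (log2 fold change -1.41 ± 0.14 SE, adjusted p = 1.21e-07 by limma). The table has a single entry for NEAT1, so its short and long isoforms cannot be told apart. Of the receptors that define the TNBC label, ESR1 had 0 reads and PGR 7 reads over the 6 libraries, while ERBB2 was expressed at 6.19 ± 0.212 TPM in CsiRNA (SD, n = 3). The mesenchymal marker vimentin (VIM) stood at 1046 ± 78.9 TPM, and of the epithelial markers KRT18 stood at 1.35 TPM and KRT8, CDH1 and EPCAM below 1 TPM. Of 13 markers of leukocytes and endothelium, 6 had no read, CSF3R and MPO of neutrophils among them, and none reached a mean of 1 TPM. Their summed level was 0.199 to 0.761 TPM in CsiRNA and 0.779 to 1.14 TPM in NEAT1siRNA.

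Libraries held 15787019 to 20342860 recovered reads, and genes with a mean of at least 1 TPM, 10721 in all, were compared on log2(TPM + 1) with limma. Of these, 963 (8.98%) were called lower after NEAT1 silencing and 535 (4.99%) higher at an adjusted p under 0.05, and the median log2 fold change was -0.04. The balance of lower and higher calls depended on scaling: 1109 and 1082 after quantile normalization, 954 and 1158 after median centring, 1180 and 917 after rescaling without 4 abundant short RNAs, and 1280 and 1186 with voom on recovered reads. These scalings shifted the median of all genes by 0.03 to 0.06 on the log2 scale.

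All 6 chemokines were expressed and were lower after NEAT1 silencing. Their summed level was 487 ± 29.6 TPM in BT-549/CsiRNA cells and 274 ± 34.5 TPM in BT-549/NEAT1siRNA cells (SD, n = 3), or 43.7% lower. Together they made up 93.6 ± 0.211% of the TPM of all chemokine ligands in CsiRNA and 90.9 ± 0.493% in NEAT1siRNA (SD, n = 3). All 6 entered the fit and 6 were called lower, where 8.98% of genes tested were, and in 6 every NEAT1siRNA value lay below every CsiRNA value, where 19.3% of genes tested did so. The median of the 6 log2 fold changes was -0.85. These counts restate the choice of the group and nothing was read from them.

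**Figure D1:**
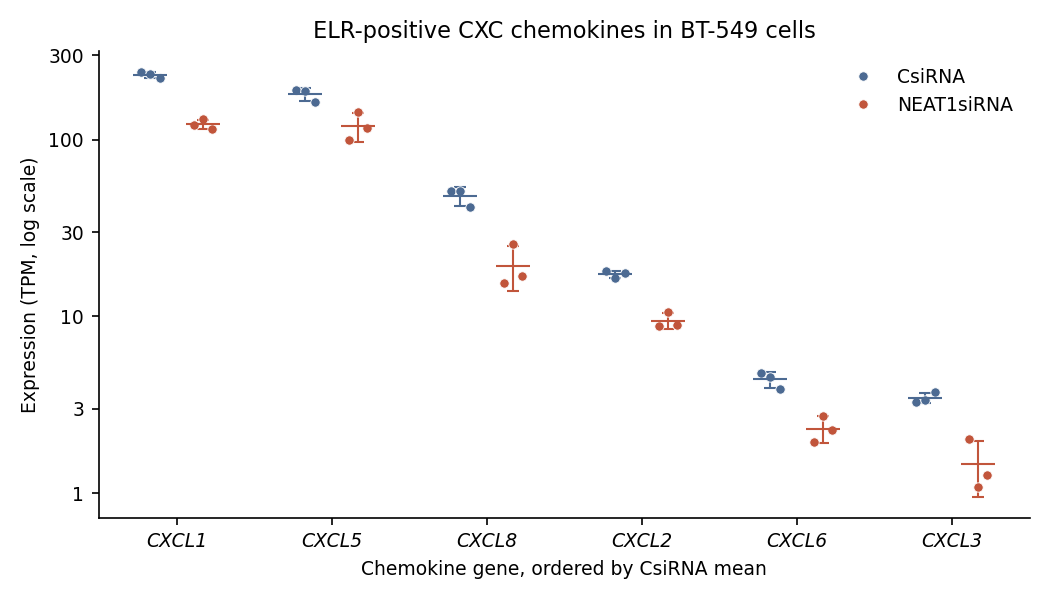
Expression of the 6 chemokine genes in TPM (log axis) in 3 CsiRNA and 3 NEAT1siRNA libraries. Points are libraries, horizontal marks are means and vertical bars are SD. CXCL1 and CXCL5 stand above 99 TPM in every library, CXCL3 and CXCL6 below 5 TPM, and for each gene the 3 NEAT1siRNA points lie below the 3 CsiRNA points.

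CXCL1, the founding GRO chemokine, was the highest of the group. Its level was 240.3, 235 and 224 TPM in CsiRNA replicates 1 to 3 and 121, 130.3 and 115 TPM in NEAT1siRNA replicates 1 to 3. The spread within each group was small, with means of 233 ± 8.45 and 122 ± 7.61 TPM (SD, n = 3). That is 47.6% lower, a log2 fold change of -0.93 ± 0.085 (SE), the 23rd lowest of the 10721 genes tested. CXCL2, the second GRO chemokine, was measured at 18.0, 16.5 and 17.6 TPM in CsiRNA and at 8.80, 10.6 and 8.96 TPM in NEAT1siRNA. The mean was 45.5% lower, with a log2 fold change of -0.82 ± 0.096 (SE). The proportional differences of CXCL1 and CXCL2 were thus close although their levels were far apart.

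CXCL3, the third GRO chemokine, was the lowest of the group, with 3.30, 3.37 and 3.72 TPM in CsiRNA and 2.03, 1.08 and 1.27 TPM in NEAT1siRNA. The means of 3.46 ± 0.222 and 1.46 ± 0.503 TPM (SD, n = 3) differed by 57.8%. Its log2 fold change of -0.88 ± 0.115 (SE) is reduced by the pseudocount of 1 TPM, since it was -1.24 with a pseudocount of 0.1 and -1.25 with voom on recovered reads. CXCL3 rested on few reads, 62, 64 and 86 in CsiRNA and 41, 23 and 24 in NEAT1siRNA. NEAT1siRNA replicate 1 was the highest of its group and the other 2 were close together. CXCL1, CXCL2 and CXCL3 share much of their sequence, with coding identities of 93.5% (CXCL1 and CXCL2), 90.7% (CXCL1 and CXCL3) and 94.4% (CXCL2 and CXCL3). Of their transcript windows of 50 bases, 5.33% in CXCL1, 10.1% in CXCL2 and 5.26% in CXCL3 were identical to a window of another member, so that a small part of the reads could be split between them.

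CXCL5 (ENA-78) was almost as abundant as CXCL1, with 191, 188 and 163 TPM in CsiRNA and 99.0, 143 and 116 TPM in NEAT1siRNA. Its means of 181 ± 15.5 and 119 ± 22.0 TPM (SD, n = 3) differed by 34.0%, the smallest proportional difference of the 6. The log2 fold change was -0.61 ± 0.106 (SE), and it was -0.48 without NEAT1siRNA replicate 1, the lowest library, and -0.74 without NEAT1siRNA replicate 2, the highest. The annotation places an antisense long noncoding RNA over CXCL5, and the strand setting used for counting is not given in the sources used here.

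CXCL6 (GCP-2), the nearest relative of CXCL5 with a coding identity of 87.4%, was measured at 4.80, 4.54 and 3.89 TPM in CsiRNA and at 1.95, 2.74 and 2.28 TPM in NEAT1siRNA. The mean was 47.3% lower, with a log2 fold change of -0.71 ± 0.105 (SE) and of -0.90 with a pseudocount of 0.1. It rested on 62 to 142 reads per library. CXCL6 stood far below CXCL5 in level, but their libraries were ordered alike, with replicate 2 highest and replicate 1 lowest in NEAT1siRNA.

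CXCL8 (interleukin-8), the most divergent of the 6 in sequence with 59.6 to 64.4% coding identity to the others, was measured at 51.2, 51.4 and 41.4 TPM in CsiRNA. In NEAT1siRNA it was measured at 15.5, 25.7 and 17.02 TPM. The means of 48.0 ± 5.73 and 19.4 ± 5.48 TPM (SD, n = 3) differed by 59.6%. The log2 fold change of -1.29 ± 0.128 (SE) was the 5th lowest of the 10721 genes tested, and it ranged from -1.50 without NEAT1siRNA replicate 2 to -1.15 without NEAT1siRNA replicate 1.

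In CsiRNA the order of levels was CXCL1, CXCL5, CXCL8, CXCL2, CXCL6 and CXCL3, and no neighbours in that order had overlapping ranges. The mean of CXCL1 was 1.29 times that of CXCL5, and the widest steps were from CXCL5 to CXCL8 (3.76 times) and from CXCL2 to CXCL6 (3.94 times). In NEAT1siRNA the order of the means was unchanged, but CXCL1 and CXCL5 (1.02 times) and CXCL6 and CXCL3 (1.59 times) then had overlapping ranges and did not differ beyond their spread.

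The shares of some members in the summed level also differed between the conditions. CXCL1 and CXCL5 together held 85.0 ± 0.288% of the summed level in CsiRNA and 88.1 ± 0.832% in NEAT1siRNA (SD, n = 3). The share of CXCL8 was 9.83 ± 0.619% in CsiRNA and 7.0 ± 1.1% in NEAT1siRNA, without overlap of the libraries. The share of CXCL5 was 37.1 ± 0.984% and 43.3 ± 2.99%, again without overlap. The share of CXCL1 (47.9 ± 1.27% and 44.8 ± 3.56%) overlapped between the groups, as did those of CXCL2, CXCL3 and CXCL6. All shares are parts of the same sum, so they do not vary independently. Per unit of CXCL5, CXCL8 stood at 0.268, 0.273 and 0.254 in CsiRNA and at 0.157, 0.180 and 0.147 in NEAT1siRNA, so the ratio within a library was 39.2% lower. The ratio of CXCL8 to CXCL1 overlapped between the groups (0.206 ± 0.0181 and 0.158 ± 0.0353).

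**Figure D2:**
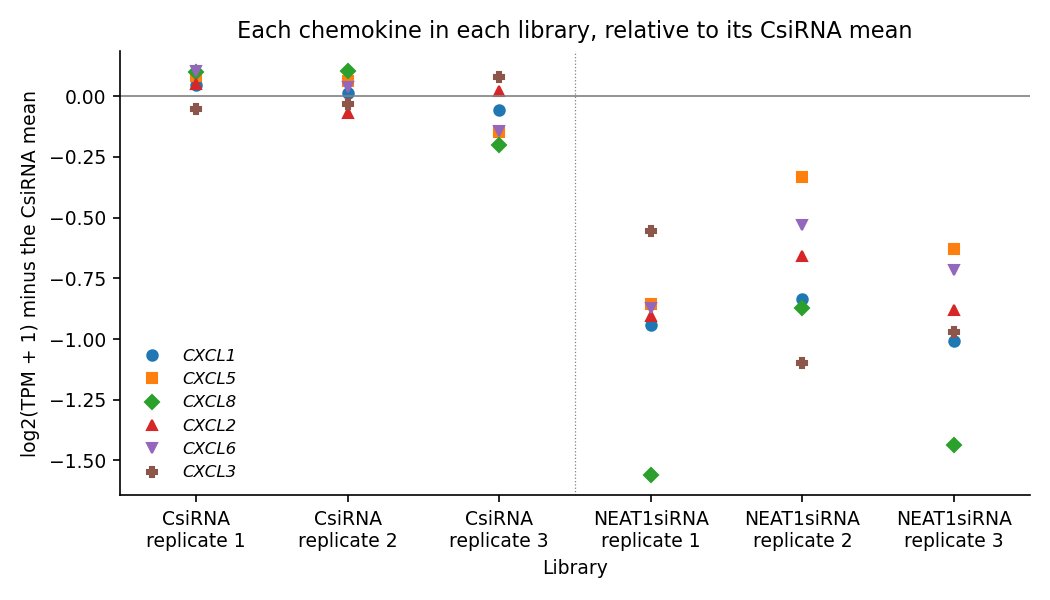
Deviation of each chemokine from its own CsiRNA mean, in log2(TPM + 1), in each of the 6 libraries (x axis); each symbol is a gene. CsiRNA points lie between -0.20 and 0.10, whereas NEAT1siRNA points run from -0.33 (CXCL5, replicate 2) to -1.56 (CXCL8, replicate 1).

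The libraries of a group were ordered alike for most of the chemokines. NEAT1siRNA replicate 2 was the highest of its group for CXCL1, CXCL2, CXCL5, CXCL6 and CXCL8 but the lowest for CXCL3. CsiRNA replicate 3 was the lowest of its group for CXCL1, CXCL5, CXCL6 and CXCL8 but the highest for CXCL3. The libraries also differed in a trend on GC content, as Spearman's rho between GC content and the deviation from the group mean, over 10424 genes and without a test, was -0.73 in NEAT1siRNA replicate 2, 0.68 in NEAT1siRNA replicate 1 and 0.47 in CsiRNA replicate 3. GC content was 32.9% in CXCL8, 37.1% in CXCL5, 39.2% in CXCL6 and 44.7 to 45.4% in the GRO genes, against a median of 47.3% of genes tested. With the trend on GC content and length removed, the log2 fold changes were -1.37 for CXCL8, -0.90 for CXCL1, -0.85 for CXCL3, -0.79 for CXCL2, -0.74 for CXCL6 and -0.63 for CXCL5, so the differences were about as large without it.

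Profiles over the 6 libraries were compared as the root mean square difference in log2(TPM + 1) after subtraction of each gene's mean. Among the 6 chemokines, CXCL5 and CXCL6 (0.073) and CXCL1 and CXCL2 (0.083) were the closest pairs, and CXCL3 and CXCL8 (0.44) were the farthest apart. On this scale the closest pairs were also pairs with a high identity in sequence: over the 100 bases before the start, 91.9% for CXCL5 and CXCL6 and 96.0% for CXCL1 and CXCL2. CXCL2 and CXCL3, with 90.9% identity there, differed by 0.24. The pseudocount of 1 TPM reduces differences of genes at low levels, such as CXCL6. Its mean was 47.3% lower and that of CXCL5 34.0% lower, so the closeness of this pair depends on the scale.

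Outside the group, the genes nearest to CXCL1 were TNFRSF10B, which encodes the TRAIL receptor DR5 (0.031), SHISA2 (0.035) and CD274, which encodes PD-L1 (0.040). CD274 was also near CXCL2 (0.069), after TXNIP, an arrestin-type protein that binds thioredoxin (0.060), and CCND1, which encodes cyclin D1 (0.061). The CD274 level was 3.14, 2.83 and 2.79 TPM in CsiRNA and 1.03, 1.31 and 0.903 TPM in NEAT1siRNA. Its mean was 63.0% lower, against 47.6% for CXCL1 and 45.5% for CXCL2. At such low levels the pseudocount of 1 TPM reduces the difference, so the closeness of CD274 holds only on this scale. CXCL6 was nearest to DKK1, a secreted WNT inhibitor (0.046), the protease gene ADAMTS6 (0.061) and UBASH3B (0.064). CXCL5 was nearest to ADAMTS6 (0.077), ARNTL2 (0.079) and NT5E, which encodes the ecto-nucleotidase CD73 (0.082). The neighbours of CXCL8 and CXCL3 were less close. They were NCEH1 (0.105), PDCD1LG2, which encodes PD-L2 (0.174), and AMIGO2 (0.178) for CXCL8, and NEURL4 (0.138) and the snoRNA hosts SNHG4 and SNHG15 (both 0.155) for CXCL3. The means of NEURL4, SNHG4 and SNHG15 were 42.8%, 44.4% and 37.5% lower, against 57.8% for CXCL3. Their closeness to CXCL3 thus also depends on the scale. Each of the 16 genes named as nearest was called lower with limma, which likeness to a lower gene brings with it.

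The receptors through which these chemokines act were not detected at this depth. CXCR1 and CXCR2 had 0 reads in all 6 libraries, which allows up to 3 reads per library, and the atypical receptor ACKR1 had 1 read in all. Of the 9 receptor genes only ACKR3, a scavenging receptor for CXCL12, was high enough to be tested. Its level was 7.70 ± 0.624 TPM in CsiRNA and 9.32 ± 0.833 TPM in NEAT1siRNA (SD, n = 3), and limma gave it a log2 fold change of 0.24 (adjusted p = 0.0938). It was past the threshold after quantile normalization, median centring and rescaling without the short RNAs, and with voom.

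Few other chemokine ligands were expressed, as 24 of the 38 outside the group had no read and 3 were tested. CCL2, a monocyte attractant, fell from 22.1 ± 0.901 to 15.8 ± 1.53 TPM (SD, n = 3; log2 fold change -0.46 ± 0.094 SE, adjusted p = 0.0017 by limma). CCL5, which attracts T cells and monocytes, stood at 9.54 ± 0.554 TPM in CsiRNA and 9.67 ± 1.13 TPM in NEAT1siRNA (log2 fold change 0.01, adjusted p = 0.953 by limma), with overlapping libraries. CXCL16, the only chemokine without the ELR motif that could be tested among CXC and CX3C ligands, stood at 1.03 and 1.29 TPM (log2 fold change 0.18, adjusted p = 0.25 by limma). All its NEAT1siRNA values lay above its CsiRNA values. With voom its log2 fold change was 0.37, and it was not called there either.

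The chemokine cluster was also read along the chromosome. From CXCL8 (chr4:73740519-73743716) it runs over CXCL6 (chr4:73836640-73849064), CXCL1 (chr4:73869393-73871308), CXCL5 (chr4:73995642-73998677) and CXCL3 (chr4:74036589-74038807) to CXCL2 (chr4:74097040-74099196), in GENCODE coordinates on GRCh38. The platelet chemokine genes PF4V1, PF4 and PPBP lie between the members, and they had 0, 16 and 0 reads in all 6 libraries. Of 12 neighbours outside the cluster, 3 were tested and 0 were called by limma, or by voom, with 1 at an unadjusted p under 0.05. The log2 fold changes were -0.20 for ANKRD17, an ankyrin repeat protein (adjusted p = 0.174), -0.06 for MTHFD2L, a mitochondrial folate enzyme (adjusted p = 0.735), and -0.01 for RCHY1, a ubiquitin ligase (adjusted p = 0.971). The EGF family genes EPGN, EREG, AREG and BTC next to the cluster had 6 to 18 reads each over the 6 libraries. The annotated body of CXCL6 also overlaps a PPBP pseudogene on the same strand.

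**Figure D3:**
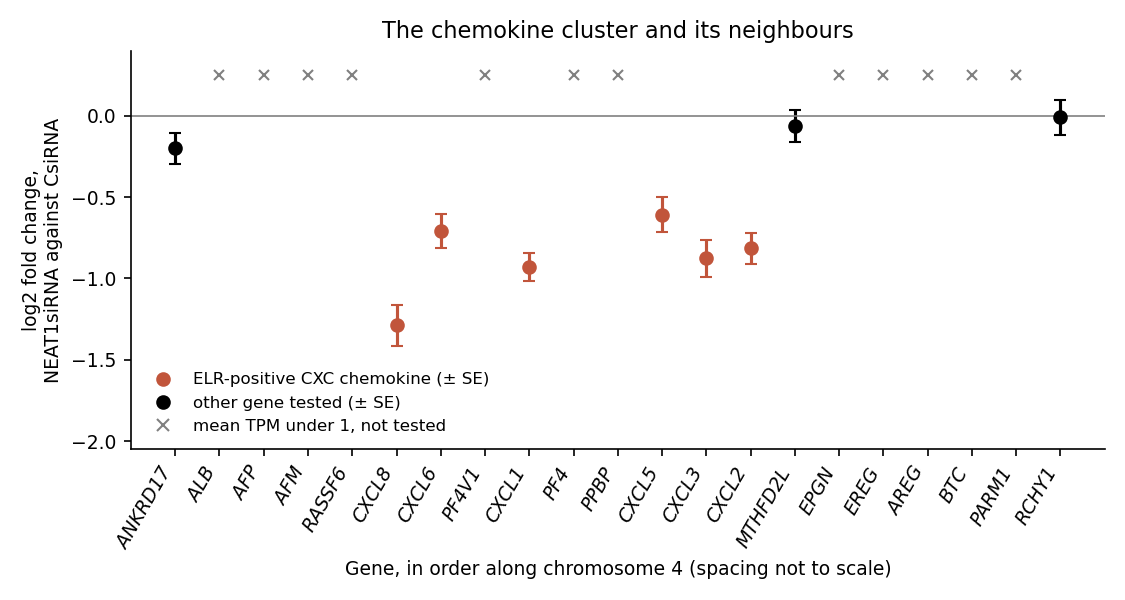
Log2 fold change of NEAT1siRNA against CsiRNA for genes in and around the chemokine cluster, in chromosomal order (x axis, not to scale); bars are SE and crosses mark genes under 1 TPM that were not tested, drawn at a fixed height with no value. The 6 chemokines lie between -0.61 and -1.29, and the 3 tested neighbours between -0.20 and -0.01.

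Of the 28 genes by which interleukin-1, TNF and interleukin-17 signals reach NF-κB, 23 were tested. Of these, 3 were called lower and 1 higher, where 8.98% and 4.99% of all genes tested were. The median log2 fold change of the 23 was -0.02 (0.01 to 0.04, and so above 0, with the other scalings). Both chains of the interleukin-1 receptor were among the called genes and moved in opposite directions. IL1RAP, the accessory chain, fell from 38.5 ± 3.25 to 20.6 ± 2.91 TPM (SD, n = 3; log2 fold change -0.88 ± 0.10 SE, adjusted p = 1.45e-06 by limma). IL1R1, the ligand-binding chain, rose from 20.5 ± 0.504 to 30.4 ± 2.72 TPM (SD, n = 3; log2 fold change 0.54 ± 0.093 SE, adjusted p = 0.000231 by limma). IRAK2, a kinase downstream of the receptor, fell (log2 fold change -0.51, adjusted p = 0.0016 by limma), a call that was lost with no filter on low TPM (adjusted p = 0.0804 by limma). TRAF2, an adaptor of TNF receptors, was just past the threshold (log2 fold change -0.28, adjusted p = 0.0487 by limma) and was not past it in 5 of the 6 fits that left out 1 library, nor with no filter. The ligands themselves were scarce: TNF had 2 reads and IL1A 1 read in all. IL1B was at 0.957, 0.794 and 0.776 TPM in CsiRNA and 0.569, 0.169 and 0.533 TPM in NEAT1siRNA, below the level needed for the test and with 5 to 25 reads per library.

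Of 24 regulators of transcription of these chemokine genes, 23 were tested. Of these, 8 were called lower and 1 higher, where 8.98% and 4.99% of all genes tested were. The median log2 fold change of the 23 was -0.12, and -0.09 to -0.06 with the other scalings. With other scalings 8 or 9 were lower and 3 or 4 higher. The AP-1 subunit FOSL1 had the lowest value, falling from 67.1 ± 3.30 to 34.1 ± 1.0 TPM (SD, n = 3; log2 fold change -0.96 ± 0.088 SE, adjusted p = 3.46e-08 by limma). JUN, its usual partner, fell with a log2 fold change of -0.48 (adjusted p = 0.0012 by limma). NFKBIZ, an atypical IκB protein that acts in the nucleus as a coactivator, fell from 10.95 ± 1.28 to 6.52 ± 0.736 TPM (SD, n = 3; log2 fold change -0.67 ± 0.10 SE, adjusted p = 7.02e-05 by limma).

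Some subunits of NF-κB passed the test and others did not. NFKB2 (log2 fold change -0.48, adjusted p = 0.0014 by limma) and NFKB1 (-0.41, adjusted p = 0.0056 by limma) fell, as did RELB (-0.31, adjusted p = 0.0257 by limma). REL was at a log2 fold change of 0.04 (adjusted p = 0.827 by limma). RELA, the main activating subunit, stood at 37.5 ± 2.12 TPM in CsiRNA and 34.5 ± 2.60 TPM in NEAT1siRNA with overlapping libraries (log2 fold change -0.12, adjusted p = 0.438 by limma). NFKBIA, the inhibitor IκBα, was at 32.7 ± 3.0 and 30.8 ± 0.765 TPM (log2 fold change -0.08, adjusted p = 0.633 by limma). BCL3, another nuclear IκB protein, rose from 19.7 ± 2.23 to 27.0 ± 2.61 TPM (log2 fold change 0.44, adjusted p = 0.0041 by limma). SFPQ, the paraspeckle protein, fell from 116 ± 5.03 to 93.5 ± 8.25 TPM (log2 fold change -0.31, adjusted p = 0.0205 by limma). With no filter on low TPM the calls of NFKB2, NFKB1, BCL3 and SFPQ were lost (adjusted p = 0.051 to 0.0919 by limma). The calls of NFKB1 and SFPQ were also lost without CsiRNA replicate 1 (adjusted p = 0.0599 and 0.124 by limma), and that of SFPQ also without NEAT1siRNA replicate 3 (adjusted p = 0.16 by limma).

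The 3′ untranslated regions of the 6 chemokines were rich in ATTTA, the core of AU-rich elements. There were 6, 10 and 7 copies in CXCL1, CXCL2 and CXCL3 and 11, 6 and 9 copies in CXCL5, CXCL6 and CXCL8. Per kb this was 5.36 (CXCL6) to 13.97 (CXCL2), which placed the 6 between the 92.3rd and 99.6th percentiles of 9909 genes tested, whose median was 1.87 per kb. Of the 20 proteins known to govern the decay or stability of such mRNAs, tristetraprolin (ZFP36) and KSRP (KHSRP) among them, all were tested and 0 were called by limma, with 4 at an unadjusted p under 0.05. Voom and quantile normalization each called 1 lower and 1 higher. Rescaling without the short RNAs called 2 lower and 1 higher, and median centring called 0 lower and 1 higher. ZFP36 was at 17.9 ± 1.19 and 16.8 ± 1.33 TPM and KHSRP at 84.6 ± 5.28 and 86.5 ± 4.98 TPM in CsiRNA and NEAT1siRNA (SD, n = 3), with overlapping libraries.

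**Figure D4:**
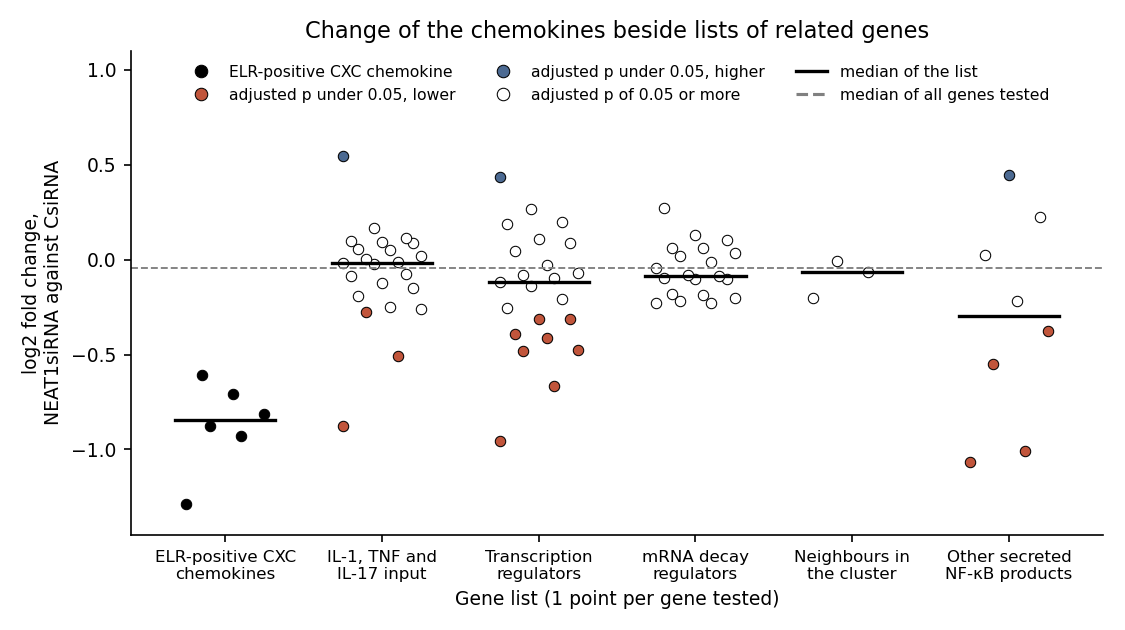
Log2 fold change of NEAT1siRNA against CsiRNA for the 6 chemokines (black) and for genes of 5 related lists; filled points passed an adjusted p under 0.05 in limma, solid bars are list medians and the dashed line is the median of all genes tested (-0.04). The chemokines were chosen with their difference already known, so their median of -0.85 is only a description beside those of the lists, which run from -0.02 to -0.30.

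Other secreted or surface products of NF-κB targets were mixed. Of 22 such genes 8 were tested. Of these, 4 were called lower and 1 higher, where 8.98% and 4.99% of all genes tested were. The median log2 fold change of the 8 was -0.30. LIF, a cytokine of the interleukin-6 family, fell from 8.62 ± 0.693 to 3.61 ± 0.503 TPM (SD, n = 3; log2 fold change -1.06 ± 0.10 SE, adjusted p = 5.75e-08 by limma). ICAM1, an adhesion receptor for neutrophils and other leukocytes, fell with a log2 fold change of -0.55 (adjusted p = 0.000148 by limma). IL6 fell with a log2 fold change of -0.37 (adjusted p = 0.0088 by limma), a call that was lost without CsiRNA replicate 1 (adjusted p = 0.068 by limma), without NEAT1siRNA replicate 3 (adjusted p = 0.0514 by limma) or with no filter (adjusted p = 0.069 by limma). CSF1, the macrophage growth factor, rose from 27.1 ± 2.17 to 37.2 ± 1.25 TPM (SD, n = 3; log2 fold change 0.45, adjusted p = 0.0016 by limma). CSF3, the growth factor of neutrophils, had no read.

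The promoter letters shown above were also looked up outside the group. Of the 33 other genes tested that held GGAATTTCC within 300 bases of promoter, 5 were called lower, 1 higher and 27 neither. Over all 10721 genes tested, 8.98% were called lower, 4.99% were called higher and 9223 genes were called neither. The 33 had a median of -0.07 on the log2 scale, against -0.04 over all genes tested. The 5 called lower were DUSP6 (log2 fold change -0.90), NFKBIZ (-0.67), ICAM1 (-0.55), MICAL3 (-0.47) and NFKB1 (-0.41), and the gene called higher was MSRB3 (0.39). Of all genes on the related lists, 127 in number, 79 were tested. Of the 79, 15 were called lower and 3 higher, where 8.98% and 4.99% of all genes tested were. That number of 18 calls was 9 with no filter on low TPM and 35 once the trend on GC content and length was removed.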

How the data were processed

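RNA-seq of 3 BT-549/CsiRNA and 3 BT-549/NEAT1siRNA cultures was analysed. The authors made stranded mRNA libraries and aligned reads to GRCh38 with STAR; the gene counter, the strand setting and tool versions are not given in the sources used here. The authors deposited TPM for 25545 genes per library. The authors also deposited their DESeq2 comparison of 19392 genes, which holds fold changes, p-values and, as an averaged signal, the mean of normalized counts over all libraries. Those fold changes and p-values were not used.

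Since the values are TPM, log2(TPM + 1) was compared with limma 3.58.1 (lmFit, and eBayes with trend) in R 4.3.3 rather than with the count model of the study. Genes were tested where the mean TPM was 1 or more, p-values were two-sided and adjusted by Benjamini-Hochberg over all 10721 genes, and the threshold was 0.05. With 3 libraries against 3 an exact permutation test cannot go below p = 0.1, so none was run. P-values measure the spread between triplicate cultures. Reads were recovered by joining TPM with the mean normalized count. They came within 0.05 of a whole number in 99.9% of values for genes with a mean count under 5, and in 12.5% above 500, so high counts are approximate. The 4 short RNAs left out in one scaling (RN7SK, RN7SL1, RN7SL2 and RPPH1) held 64.4 to 68.1% of TPM and 2.30 to 3.01% of reads.

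The members and the gene lists were chosen with earlier results of these data known. Named genes were the members, NEAT1, up to 6 called genes per list by size of change, CXCR1, CXCR2, ACKR1, RELA, NFKB1, NFKBIA, NFKBIZ and SFPQ, the 3 genes nearest in profile to each member, and the 2 highest other chemokine ligands. Markers, REL, RELB, IL1A, IL1B, TNF, ACKR3, CXCL16, ZFP36, KHSRP, CSF3, genes beside the cluster, DUSP6, MICAL3 and MSRB3 were named after their values were seen. Values of 1 called gene on the list of secreted products are not reported here. Gene models came from GENCODE on GRCh38, where 22172 symbols matched directly, 783 through an older symbol, and 2590 stayed unmatched. Alternatives were other pseudocounts, filters, scalings, voom on recovered reads, a replicate block, a correction for GC content and transcript length (by splines, 4 degrees of freedom each), and leaving out each library. The fit was tested on simulated data. Python 3.11.15, pandas 2.3.3, numpy 2.4.6, scipy 1.17.1, Biopython 1.88 and matplotlib 3.10.9 were used.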

Additional observations from a re-analysis of the deposited data

How the results depend on the processing

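CXCL1, CXCL2, CXCL5 and CXCL8 kept their direction under all 17 other settings, and CXCL3 and CXCL6 under 16, since a mean TPM of at least 5 leaves both out. The median log2 fold change of those fitted was between -0.92 and -0.79, against -0.85 as reported, and at the higher minimum it covers 4 genes. The number of changed genes, 1498 as reported, was 505 with no filter on TPM, 2466 with voom on recovered reads, 3467 with the GC and length trend removed and 3391 with that trend removed and a replicate block; leaving out 1 library gave 759 to 2083, with 759 without CsiRNA replicate 1 and 838 without NEAT1siRNA replicate 3. The number of called genes on the related lists, 18 as reported, was 9 with no filter, 35 with the trend removed, 35 with trend removal and block, and 12 to 26 with 1 library left out. CXCL3 was at -1.24 and CXCL6 at -0.90 with a pseudocount of 0.1, and CXCL3 at -1.25 with voom. CCL5, which was not called, ranged from -0.063 to 0.090 with 1 library left out and was below 0 without CsiRNA replicate 2 (-0.02) and without NEAT1siRNA replicate 2. Over 43 named genes and 723 values, 699 were counted as unchanged, 19 lost the call, 2 changed sign and 3 moved beyond the spread. Unchanged means direction and call, but for the chemokines of the group only direction and size, as their calls did not enter this count. With no filter the calls of ARNTL2, BCL3, IL6, IRAK2, NEURL4, NFKB1, NFKB2, SFPQ and TRAF2 were among those lost. CXCL5, outside that count of lost calls, was also not called with no filter, and was called lower in 16 of the 17 other settings. The cause of these changes was not tested.

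The labels give the same replicate numbers in both groups. Deviations of same-numbered libraries correlated at -0.03, 0.25 and -0.11, and not every library correlated best with its own number. These values cannot show whether same-numbered libraries were handled together, since the deviations also carry each library's trend on GC content. With the replicate block 1640 genes and 19 genes of the related lists were called, and no call of a named gene changed. The low read counts of CXCL3 and CXCL6 limit their precision.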
